A study of Mus musculus with 3 samples.

Results

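The fibroblasts of the mouse dorsal root ganglion (DRG) are described here, as they were found in 3 single-cell libraries. They were chosen by their own transcripts. A cell was counted as a fibroblast when it carried at least 1 unique molecular identifier (UMI, a tag that marks a captured transcript molecule) of at least 3 of the 7 genes Dcn, Lum, Pdgfra, Col1a1, Mmp2, Gpc3 and Smoc2. It also had to carry at most 1 UMI in each of 5 sums of genes of other cell types: Pecam1 and Cdh5 for endothelium, Myh11 and Kcnj8 for mural cells, Csf1r and C1qa for macrophages, Mag, Prx and Ncmap for myelinating Schwann cells, and Snap25 and Rbfox3 for neurons. Of 11937 deposited barcodes, 9662 had at least 500 genes and at most 20% of UMIs from mitochondrial genes, and 282 of these cells were fibroblasts, with 74 from naïve mice, 61 from 7 days and 147 from 14 days after nerve injury.

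Per the labels, the libraries came from male C57BL/6J mice of 13 weeks. Each held the L3 and L4 ganglia of both sides, pooled from 2 mice (8 ganglia), after perfusion and dissociation with collagenase and dispase. The mice were either untreated (naïve) or had spared nerve injury (SNI), a lesion of branches of the sciatic nerve that leaves another branch intact, on both hind legs 7 or 14 days earlier. The study's text calls the injury of its single-cell data a partial ligation of the sciatic nerve and its methods name female mice; the labels were followed here. With 1 library for each condition there was no replicate, so no difference between conditions was tested, all intervals are 95% intervals of counting error only, and both SNI comparisons share the naïve library.

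Fibroblasts are a small population in a ganglion dominated by neurons and glia. In peripheral nerve and ganglion they lie between the fibres as endoneurial fibroblasts, around bundles of fibres as the barrier-forming perineurial cells, and in the outer sheath as epineurial fibroblasts, and the sheath of the ganglion continues into the meninges of the nerve root. They secrete collagens and small proteoglycans such as decorin, and they can signal to immune cells and neurons through chemokines, complement proteins and growth factors.

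Fibroblasts made up 2.35% (1.85 to 2.94, exact Clopper-Pearson) of the kept cells of the naïve library. The share was 2.27% (1.74 to 2.91) at 7 days and 3.84% (3.25 to 4.50) at 14 days. The day 14 interval did not overlap the others, while the naïve and day 7 intervals did. The separation of day 14 depended on which cells were counted. It held with no cell filter, where the day 14 interval was 3.60% to 4.73%. The naïve and day 7 intervals were then 1.91% to 2.91% and 1.91% to 2.99%. It also held when at least 4 of the 7 fibroblast genes were asked for, and without the cells marked by a doublet caller, described below. Without the members that carried at least 5 glia genes, described below, the shares were 2.35% (1.85 to 2.94), 2.20% (1.68 to 2.83) and 3.37% (2.82 to 3.99), and the day 14 interval overlapped both others. The intervals also overlapped under a stricter cell filter, which asked for 1000 genes or more and allowed 10% of mitochondrial UMIs, with 3.13%, 2.59% and 3.89%, and with the 5 sums of other cell types held at 0, with 1.84%, 1.60% and 2.46%. When each cell was reduced at random to 2000 UMIs before the rule was applied, the shares were 2.12%, 2.30% and 4.02%. Fibroblasts were shallow cells, with a median of 2565, 3365 and 3429 UMIs and 1362, 1732 and 1706 genes in the naïve, day 7 and day 14 libraries, compared with medians of 3072, 4010 and 4199 UMIs over all kept cells. Mitochondrial genes gave a median of 8.13%, 9.64% and 11.3% of their UMIs. In total the naïve fibroblasts held 209297 UMIs, those of day 7 held 254487 and those of day 14 held 693790, so the naïve levels carry the widest counting error. No fibroblast barcode occurred in more than 1 library.

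The 5 genes that define the cell type here were abundant in each library, and low in all other kept cells, which is a description because the rule used them. Levels are given in CPM, the UMIs of a gene scaled to 1000000 UMIs of the fibroblasts of a library. The chemistry reads the 3′ end of transcripts, so these levels are not scaled by gene length. Dcn, which encodes the proteoglycan decorin, was at 22103, 20905 and 19909 CPM in naïve, day 7 and day 14 fibroblasts, with at least 1 UMI in 100%, 100% and 99.3% of fibroblasts. Lum, for the related proteoglycan lumican, was at 4286, 6338 and 3795 CPM. The type I collagen gene Col1a1 was at 4730, 4888 and 4307 CPM, the gelatinase gene Mmp2 at 941, 1301 and 1035 CPM, and the platelet-derived growth factor receptor gene Pdgfra at 535, 428 and 486 CPM. Pdgfra was the sparsest of the 5, with a UMI in 56.8%, 68.9% and 68.0% of fibroblasts. In myelinating Schwann cells, with median depths of 2606, 3625 and 3700 UMIs, Dcn had a UMI in 3.01%, 4.27% and 7.29% of cells and Pdgfra in 0.210%, 0.335% and 0.118%. Col1a1 was the least specific of the genes, with a UMI in 23.9%, 28.5% and 29.1% of these Schwann cells.

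**Figure D1:**
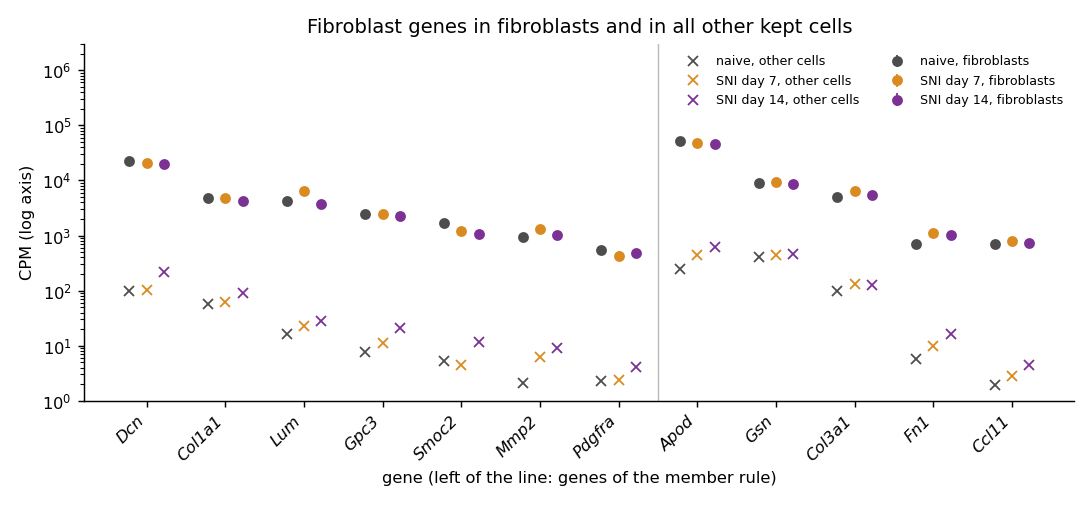
Levels of 12 genes in fibroblasts (circles, with exact Poisson intervals that are mostly smaller than the symbol) and in all other kept cells (crosses), in CPM on a log axis, by library. In each library the fibroblast level of each gene was above that of the other cells; Dcn was at 22103, 20905 and 19909 CPM against 96.7, 104 and 220.

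The margin of the rule was described once. All 7 genes had a UMI in 32 of 74 naïve, 34 of 61 day 7 and 72 of 147 day 14 fibroblasts. The members with 3 genes only were few, 4, 4 and 10, and in them the 7 genes summed to 16258, 2584 and 2925 CPM. Just outside, the kept cells with 2 of the genes numbered 65, 85 and 191, and in them the sum was 174, 157 and 202 CPM. Over all members it was 36780, 37519 and 32833 CPM. The sums of the other cell types removed 26, 26 and 96 cells that carried at least 3 fibroblast genes.

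Some members also carried glial transcripts, and they were unequally spread over the libraries. Of 10 genes of satellite glia, the cells that wrap neuronal cell bodies (among them Fabp7, Kcnj10, Entpd2, Cdh19, Sox10, Gja1, Ednrb and Ptprz1), at least 5 had a UMI in 0 of 74 naïve, 2 of 61 day 7 and 18 of 147 day 14 fibroblasts. These cells held 8.02% of the fibroblast UMIs at 7 days and 25.7% at 14 days. They were deep, with median depths of 10207 and 7920 UMIs, and in them the 10 glia genes reached 17292 and 11505 CPM while Dcn was at 3478 and 8930 CPM. In the other fibroblasts, 74, 59 and 129 cells, the 10 glia genes were at 1644, 1290 and 1862 CPM and Dcn at 22103, 22425 and 23706 CPM. A doublet caller run on each library marked 1 of the 20 cells and no other fibroblast. Values without these 20 cells, a choice made after their values were seen, are therefore given beside many of the results that follow.

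**Figure D2:**
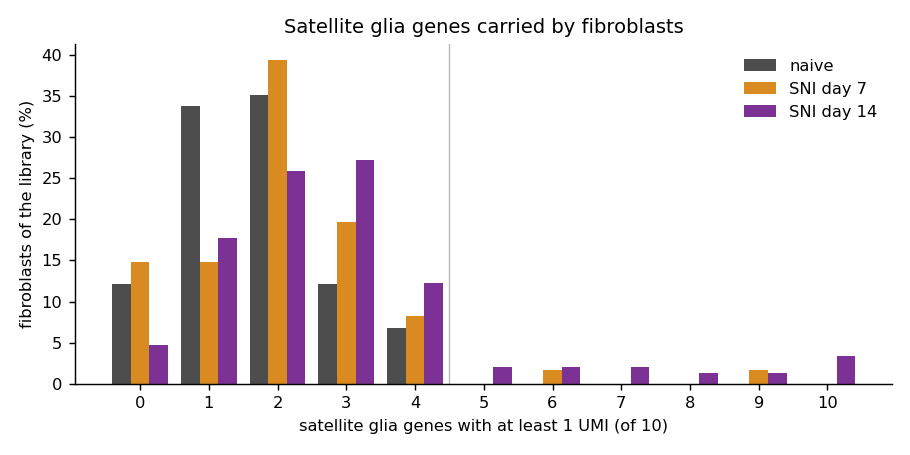
Share of the fibroblasts of each library (per cent) by the number of 10 satellite glia genes with at least 1 UMI; the vertical line marks the limit of 5 genes. No naïve fibroblast carried more than 4, and 2 day 7 and 18 day 14 fibroblasts lay to the right of the line.

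The 20 cells were chosen by these same glia genes, and no naïve cell was among them. Lower SNI levels of the genes without these cells follow in part from that choice, so the values are a description only. The glia genes differed in how much of their level lay in these cells. Fabp7, which encodes a fatty acid binding protein of glia, was at 66.9, 664 and 899 CPM over all members and at 66.9, 42.7 and 56.3 CPM without the 20 cells. Sox10, a transcription factor of the glial lineage, had no UMI in naïve fibroblasts and was at 11.8 and 72.1 CPM in the SNI libraries, of which 4.27 and 1.94 CPM were left. Entpd2, by contrast, was a gene of the fibroblasts at large. Entpd2, which encodes an ectonucleotidase, was at 220, 256 and 262 CPM after the 20 cells were left out. Over all members it had a UMI in 39.2%, 45.9% and 54.4% of fibroblasts and in 2.66%, 2.93% and 4.52% of myelinating Schwann cells.

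Beyond the rule, the gene that filled most of a fibroblast's captured RNA was Apod, for the lipid carrier apolipoprotein D. It was at 52480, 47319 and 46449 CPM in fibroblasts and at 251, 448 and 612 CPM in the other kept cells. Gsn, for the actin-severing protein gelsolin, was at 8949, 9380 and 8622 CPM. The 10 genes highest over other kept cells were Lum, Dcn, Apod, Gpc3, Mmp2, Ccl11, Smoc2, Col1a1, Col3a1 and Fn1, and 6 of these are genes of the rule. Of the others, the type III collagen gene Col3a1 was at 5026, 6307 and 5489 CPM, the fibronectin gene Fn1 at 688, 1096 and 1019 CPM, and Ccl11, a chemokine gene known for attracting eosinophils, at 702, 794 and 741 CPM. In all, 105 genes were at least 8-fold higher in fibroblasts than in the other cells of the same library, in all 3 libraries.

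Across the 6350 genes with at least 30 UMIs over all members, 158 (2.49%) were at least 2-fold higher in both SNI libraries and 45 (0.709%) at least 2-fold lower. Ratios are log2 ratios of CPM over the naïve library with 10 CPM added to each side, and their median over all genes was -0.02 at both times. Without the 20 glia-gene cells, 5540 genes passed the minimum, of which 61 (1.1%) were higher and 42 (0.758%) were lower. Of the 158 higher genes 51 were also among the 61, which is 32.3% of the longer list and 83.6% of the shorter, and 72 of the 158 no longer had enough UMIs. Of the 45 lower genes 28 were also among the 42, or 62.2% and 66.7%. Counting error alone could give a ratio on the other side of 1 for many of these genes: both intervals of the ratio lay clear of 1 for 81 of the 158 and 40 of the 45, and for 41 of the 61 and 36 of the 42. At 7 days 273 genes (4.3%) were higher and 238 (3.75%) lower, at 14 days 278 (4.38%) and 134 (2.11%), and between 7 and 14 days 149 (2.35%) were higher and 52 (0.819%) lower at 14 days. Without the glia-gene cells the corresponding shares were 2.73% and 3.52% at 7 days, 2.44% and 2.18% at 14 days, and 2.2% and 1.28% between the times, with 39.8% of genes below 0 in both SNI libraries and 33% above.

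The genes of the collagen matrix differed little between libraries. None of 8 fibrillar collagen genes was 2-fold higher or lower in both SNI libraries, and their median log2 ratios were 0.04 and 0.12, or 0.14 and 0.19 without the glia-gene cells. Together they gave 15901, 17632 and 16518 CPM, led by Col3a1, by Col1a2 at 4869, 5002 and 5261 CPM, and by Col1a1. Of 13 other collagen genes with enough UMIs, Col12a1, which encodes a collagen on the surface of fibrils, was 2-fold lower in both. None was higher, where 0.709% of all genes were lower and 2.49% higher. Col12a1 was at 258, 114 and 108 CPM. Without the glia-gene cells Col12a1 was at 258, 124 and 128 CPM, and under the stricter cell filter its day 14 ratio turned to 1.40. The basement membrane collagen gene Col15a1 was at 1777, 1886 and 2027 CPM, and the type VI genes Col6a1 and Col6a3 at 827, 778 and 711 CPM and at 378, 578 and 467 CPM.

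Of 50 genes of matrix proteoglycans and glycoproteins 44 were measured, and their median ratios were 0.05 and 0.08. Fbln5 and Comp were 2-fold higher in both SNI libraries and none was lower, beside 2.49% and 0.709% of all genes. Each rested on a few cells. Fbln5, for an elastic fibre protein, had 7, 44 and 80 UMIs, of which 36 of the 44 at 7 days came from 1 cell, and its ratios were -0.29 and 0.28 without the glia-gene cells. Comp, for cartilage oligomeric matrix protein, had 0, 23 and 9 UMIs in 0, 3 and 4 cells. Its day 7 level was 6.31 times a limit of 3 UMIs for the naïve library, without the counting error of the day 7 count. Its day 14 level lay below that limit. Under the stricter cell filter the ratios of Comp were 0.00 and 0.00, and those of Fbln5 0.26 and 0.09.

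Over all members, genes that process and cross-link collagen were mostly a little lower after SNI. Of 16 measured, 11 had ratios below 0 in both SNI libraries, compared with 38.5% of all genes, and the medians were -0.29 and -0.38, or -0.14 and -0.11 without the glia-gene cells. The day 7 median was 0.01 under the stricter cell filter. Without members of at least 4 glia genes the day 14 median was -0.03. Serpinh1, for the collagen chaperone HSP47, was at 1725, 1474 and 1476 CPM, and Pcolce, for an enhancer of procollagen cleavage, at 1142, 810 and 872 CPM. Ratios were above 0 in both for 3 of the 16. Crtap, for a partner of collagen prolyl 3-hydroxylase, was the 1 gene of the list past 2-fold in both SNI libraries, also without the glia-gene cells. Over all genes 2.49% were higher in both. Crtap had few naïve UMIs. It was at 43.0 CPM (19.7 to 81.6) in naïve fibroblasts, 118 (79.5 to 168) at 7 days and 124 (99.2 to 153) at 14 days, with log2 ratios of 1.27 and 1.34, and was detected in 12.2%, 31.2% and 40.1% of fibroblasts. In the other kept cells the Crtap ratios were 0.06 and -0.01. None of 17 matrix proteases and inhibitors was 2-fold apart in both, with medians of 0.21 and 0.14, and Timp3, a metalloprotease inhibitor, was at 659, 696 and 964 CPM.

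Genes of contractile myofibroblasts were scarce. Acta2, for smooth muscle actin, had 1, 0 and 5 UMIs, Cthrc1 had 0, 2 and 4, and Lrrc15, a marker of activated fibroblasts, had none. Of 13 measured genes of contractile and activated fibroblasts, S100a4 was higher in both SNI libraries and Myl9 and Cyr61 were lower. The shares of all genes were 2.49% and 0.709%. Myl9, for a myosin light chain, was at 129, 23.6 and 37.5 CPM, but 14 of its 27 naïve UMIs came from 1 cell, and so did 8 of the 12 naïve UMIs of Cyr61. S100a4, a calcium-binding protein gene of motile cells, was at 19.1, 51.1 and 104 CPM, and its ratios of 1.07 and 1.97 became 0.97 and 1.10 without the glia-gene cells. Thy1, a surface glycoprotein gene of fibroblasts and neurons, was 2-fold higher in both only in that smaller set, with ratios of 1.38 and 1.10 against 1.32 and 0.89. Vim, for the intermediate filament vimentin, was at 535, 853 and 1234 CPM and, in the smaller set, 535, 773 and 838 CPM.

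Genes of dividing cells were nearly absent. Mki67 had no UMI in any of the 282 fibroblasts and Top2a had 0, 0 and 1. A count of 0 allows a level of up to 14.3, 11.8 and 4.32 CPM in the naïve, day 7 and day 14 fibroblasts. Of 22 genes in the list 5 were measured and none was 2-fold apart in both SNI libraries. The cell cycle inhibitor gene Cdkn1a was at 287, 287 and 268 CPM.

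Among signalling genes, a small number were higher after SNI. Csf1, which encodes the growth factor that macrophages and microglia need, had 3, 16 and 41 UMIs in 74, 61 and 147 fibroblasts. Its level was 14.3 CPM (2.96 to 41.9), 62.9 (35.9 to 102) and 59.1 (42.4 to 80.2), and it was detected in 4.05%, 21.3% and 22.5% of fibroblasts. The intervals of the naïve and day 14 levels did not overlap, while those of the naïve and day 7 levels did. The interval of the log2 ratio, without the added 10 CPM, ran from 0.33 to 4.55 at 7 days and from 0.40 to 4.38 at 14 days. Leaving out the glia-gene cells gave Csf1 ratios of 1.52 and 1.57, against 1.58 and 1.51 with them. In neurons, grouped by at least 2 UMIs of their marker sum, Csf1 was at 5.39, 29.3 and 34.6 CPM, and in myelinating Schwann cells it was at 4.42, 4.02 and 3.88 CPM with a UMI in 1.33%, 1.67% and 1.59% of cells. The neurons had median depths of 38038, 6540 and 16076 UMIs, so neuron values here and below compare groups of unlike depth.

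Csf1 was the only 1 of 9 measured chemokine and cytokine genes that was 2-fold higher in both SNI libraries, and none was lower. The shares of all genes were 2.49% and 0.709%. Cxcl12, for a chemokine that guides leukocytes and progenitor cells, was at 186, 252 and 258 CPM, and Il33, an alarmin gene, at 158, 197 and 159 CPM. Ccl2, a monocyte chemokine gene chosen after its values were seen, was at 115, 51.1 and 111 CPM. No UMI of Il6 was found in fibroblasts.

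C3, for the central complement protein, was the 1 of 10 measured complement genes that was 2-fold higher in both SNI libraries. None was lower, where 2.49% of all genes were higher and 0.709% lower. C3 was at 62.1 CPM (33.1 to 106) in naïve fibroblasts, 142 (99.1 to 196) at 7 days and 301 (262 to 345) at 14 days, from 13, 36 and 209 UMIs. The day 14 interval lay above both others, and the share of fibroblasts with a UMI was 8.11%, 24.6% and 27.9%. No cell held more than 15 C3 UMIs. Ratios of C3 were 1.07 and 2.11 over all members, 1.18 and 2.43 without the glia-gene cells and 0.53 and 2.10 under the stricter cell filter, where the day 7 level was no longer 2-fold higher. Myelinating Schwann cells had a C3 UMI in 0.0700%, 0.0837% and 0.176% of cells, and endothelial cells in 0%, 0% and 0.338%. Of the other complement genes, Serping1, for the C1 inhibitor, was at 1548, 1371 and 1473 CPM and C1s1, a C1 protease gene, at 425, 491 and 500 CPM. C4b and Serpina3n, an acute phase inhibitor gene, were chosen after their values were seen. C4b was at 71.7, 114 and 164 CPM, and Serpina3n at 47.8, 122 and 154 CPM.

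Of 57 growth and trophic factor genes 19 were measured, and Fgf7 and Ptn were higher in both SNI libraries, beside 2.49% of all genes. Fgf7, for keratinocyte growth factor, had 1, 9 and 26 UMIs, or 4.78, 35.4 and 37.5 CPM, and the interval of its log2 ratio was wide, from 0.04 to 8.34 at 7 days and from 0.37 to 8.33 at 14 days. Myelinating Schwann cells carried more Fgf7 than fibroblasts in each library, with 81.9, 83.8 and 108 CPM. Ptn, for pleiotrophin, had ratios of 1.14 and 1.07 that became -0.56 and -2.00 without the glia-gene cells. Igf1 was at 521, 342 and 372 CPM and Bmp5, a bone morphogenetic protein gene, at 378, 358 and 342 CPM. Igfbp4, for a binding protein of insulin-like growth factors and chosen after its values were seen, was at 487, 1289 and 675 CPM, but 92 of its 328 UMIs at 7 days came from 1 cell. Gdnf, for a trophic factor of neurons, had 0, 0 and 4 UMIs. None of 24 measured receptor genes was 2-fold apart in both libraries.

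The Wnt inhibitors of the secreted frizzled-related family went different ways. Sfrp5 had 2, 45 and 84 UMIs in 2.70%, 8.20% and 10.2% of fibroblasts. Of the 45, 22 were in 1 cell, and the ratios of 3.26 and 2.74 became 2.47 and 2.19 without the glia-gene cells and 0.00 and 0.78 under the stricter cell filter. The interval of the log2 ratio ran from 2.27 to 7.30 at 7 days and from 1.77 to 6.73 at 14 days. Sfrp4 was at 960, 703 and 143 CPM, with ratios of -0.44 and -2.67, and was carried by 10.8%, 19.7% and 12.9% of fibroblasts. Of its 201 naïve UMIs, 101 were in 1 cell. Sostdc1, for another inhibitor, had ratios of 3.02 and 3.08 that became -0.05 and -0.09 without the glia-gene cells. Wnt5a was at 186, 212 and 166 CPM.

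Apart from listed pathways, the genes that were furthest above the naïve level without the glia-gene cells were Rnf149, Slc6a6, Sertad2, Uchl1, Gm2000, Fgf7, Leprot, Csf1, Dbp, Tox4, Dusp1 and Pip4k2b. Rnf149, for a ubiquitin ligase, had 0, 16 and 36 UMIs over all members. Its levels at 7 and 14 days were 4.39 and 3.62 times the limit of 3 UMIs in the naïve library. These multiples leave out the counting error of the SNI counts. Slc6a6, for the taurine transporter, had 2, 19 and 54 UMIs, or 9.56, 74.7 and 77.8 CPM, and the interval of its log2 ratio ran from 0.91 to 6.11 at 7 days and from 1.10 to 6.11 at 14 days. The Slc6a6 ratios were 0.89 and 1.25 under the stricter cell filter. Leprot, which shares its start with the leptin receptor gene Lepr, had the most even support of these genes. It was at 33.5 CPM (13.5 to 68.9), 130 (89.3 to 182) and 120 (95.3 to 148), in 9.46%, 36.1% and 38.8% of fibroblasts, with no more than 4 UMIs in a cell. Lepr itself was at 100, 35.4 and 27.4 CPM, 2-fold lower in both SNI libraries, but with ratios of -0.29 and -1.21 under the stricter cell filter. Sertad2, Uchl1, Gm2000, Tox4 and Pip4k2b had 1 or 2 naïve UMIs each. Uchl1, a ubiquitin hydrolase gene best known from neurons, had a UMI in 1.35%, 13.1% and 17.0% of fibroblasts, and in 11.9%, 19.8% and 18.4% of myelinating Schwann cells.

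**Figure D3:**
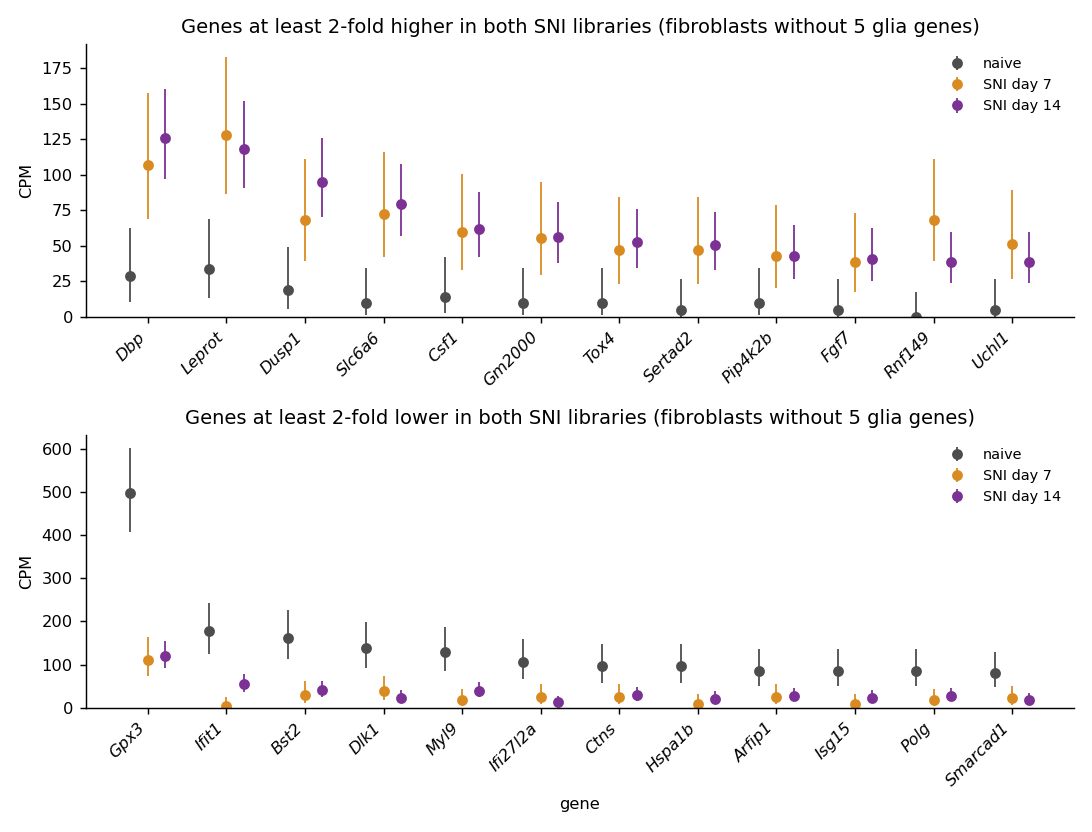
Levels in CPM, with exact 95% Poisson intervals, of the 12 genes furthest above (upper panel) and the 12 furthest below (lower panel) the naïve level, by library, in fibroblasts without the 20 glia-gene cells. Among the higher genes Leprot was at 33.5, 128 and 118 CPM and Dbp at 28.7, 107 and 126 CPM; among the lower genes Gpx3 was at 497, 111 and 120 CPM.

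With all members in, the 12 genes furthest above the naïve level included Ncam1, Fabp7, Gatm and Gpm6b, whose levels depended on the glia-gene cells. Fabp7 was also among the genes by which the glia-gene cells were chosen. Ncam1, for a neural cell adhesion molecule, had 0, 32 and 98 UMIs, and its level in the SNI libraries was 126 and 141 CPM with these cells and 29.9 and 9.70 CPM without. Gatm, for an enzyme of creatine synthesis, had ratios of 2.43 and 3.40 with these cells and 0.85 and 0.83 without. Ppip5k2, an inositol phosphate kinase gene, had 0, 13 and 20 UMIs. Its SNI levels were 3.56 and 2.01 times the limit in the naïve library, without the counting error of the SNI counts.

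Immediate early genes, which cells switch on within minutes of a stimulus and also during tissue dissociation, were higher in part. Of 24 measured genes of this response and of heat shock, Fos, Fosb, Nr4a1, Dusp1 and Socs3 were higher in both SNI libraries, and Hspa1b and Hsph1 lower, beside 2.49% and 0.709% of all genes, with list medians of 0.25 and 0.16. Without the glia-gene cells 22 genes were measured, the higher ones were Fos, Fosb, Zfp36, Dusp1 and Socs3, and the medians were 0.17 and 0.21. Nr4a1 then had 1, 8 and 16 UMIs, too few to be measured. Fos was at 115 CPM (73.5 to 171), 307 (242 to 383) and 301 (262 to 345), with ratios of 0.57 and 0.20 in the other kept cells against 1.34 and 1.32 in fibroblasts. It was detected in 9, 11 and 34 fibroblasts, and 49 of its 209 UMIs at 14 days were in 1 cell, as were 23 of 54 for Fosb and 22 of 54 for Dusp1. Egr1, of the same group, was at 511, 491 and 835 CPM and Jund at 550, 719 and 675 CPM. Socs3, for an inhibitor of cytokine signalling, was at 28.7 CPM (10.5 to 62.4), 90.4 (57.3 to 136) and 114 (90.2 to 142), and macrophages, with 0, 46 and 40 Socs3 UMIs, were also higher after SNI. With every cell counted alike the Fos ratios were 0.62 and 0.60, and with the sums of other cell types at 0 the day 7 ratio of Dusp1 was 0.25. Of the heat shock genes, Hspa8, for the constitutive HSP70, was not 2-fold lower at 7 days. It was at 1658 (1488 to 1842), 943 (828 to 1070) and 714 (652 to 779) CPM, in 97.3%, 85.3% and 79.6% of fibroblasts, and these 3 intervals did not overlap. Hsph1, for a partner of HSP70, was at 143, 51.1 and 33.2 CPM. Hspa1b was at 95.6, 39.3 and 28.8 CPM, with 8 of its 10 UMIs at 7 days in 1 cell and ratios of -0.34 and -1.08 with the sums of other cell types at 0, and its reads cannot be fully separated from those of its near copy Hspa1a, which was at 57.3, 23.6 and 10.1 CPM. In the other kept cells the Hspa8 ratios were -0.37 and -0.50.

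Of 12 measured clock genes, Dbp and Nr1d1 were 2-fold higher in both SNI libraries and none was lower, beside 2.49% and 0.709% of all genes. The list medians were 0.10 and 0.36. Dbp, a transcription factor gene driven by the clock, had 6, 25 and 79 UMIs, or 28.7, 98.2 and 114 CPM, and ratios of 1.49 and 1.68. Nr1d1, for the repressor REV-ERB alpha, was at 62.1 CPM (33.1 to 106), 169 (122 to 228) and 200.3 (168 to 237), and Per3 at 129, 244 and 296 CPM. The Nr1d1 ratios were 0.75 and 0.92 under the stricter cell filter. Arntl, for their activator BMAL1, whose transcript peaks at another time of day, was at 57.3, 39.3 and 23.1 CPM. Other cells moved in the same direction: the Dbp ratios were 0.78 and 1.05 over all other kept cells and 1.37 and 2.69 in mural cells, and those of Nr1d1 were 0.77 and 0.97. The labels used here give no time of day of dissection, so injury and hour cannot be told apart.

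Interferon response genes had the lowest median at 7 days of the lists with more than 1 measured gene. They are switched on by transcription factors that interferons activate, and most act against viruses or present antigen. Of 28 listed, 23 were measured, and 7 (Isg15, Ifit1, Oasl2, Bst2, Xaf1, Rtp4 and Ifi27l2a) were at least 2-fold lower in both SNI libraries, beside 0.709% of all genes. Ratios were below 0 in both for 17 of 23, beside 38.5% of all genes, and above 0 in both for 1, beside 34.9%. The list medians were -1.06 at 7 days and -0.52 at 14 days. Without the glia-gene cells they were -0.97 and -0.37. Of the 21 genes then measured, those still 2-fold lower in both were Isg15, Ifit1, Bst2 and Ifi27l2a, beside 0.758% of all genes. Rtp4 then had too few UMIs to be measured. Over all alternatives the medians ran from -1.34 to -0.65 at 7 days and from -0.65 to -0.14 at 14 days, the last with the sums of other cell types at 0. In the other kept cells the list medians were -0.36 and -0.34. By cell type they were -0.62 and -0.68 in myelinating Schwann cells, -0.52 and -0.59 in mural cells, -0.48 and -1.26 in macrophages, -0.42 and -0.41 in endothelial cells, and -0.11 and -0.12 in neurons. At 7 days each of these lay above the fibroblast median, while at 14 days those of Schwann cells, mural cells and macrophages lay below it.

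The sequences upstream of 3 of the lower genes are shown because they hold the element that interferon-activated factors read. Each is the 250 bases before the transcript start in RefSeq, build GRCm38.p6 (the primary assembly of mm10), written 5′ to 3′ in the sense of the transcript, and capitals mark GAAANNGAAA, or TTTCNNTTTC where it lies on the other strand, with overlapping matches run together. Ifit1 encodes an RNA-binding antiviral protein (chr19:34640639-34640888, plus strand), Isg15 a ubiquitin-like modifier (chr4:156200819-156201068, minus strand) and Bst2 tetherin, a membrane protein that holds virus particles at the cell surface (chr8:71537473-71537722, minus strand).
Ifit1: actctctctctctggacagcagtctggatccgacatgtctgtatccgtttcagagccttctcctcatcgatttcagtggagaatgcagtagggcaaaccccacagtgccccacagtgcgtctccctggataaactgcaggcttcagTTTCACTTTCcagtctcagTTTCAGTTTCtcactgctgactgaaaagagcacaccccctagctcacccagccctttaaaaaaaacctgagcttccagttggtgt
Isg15: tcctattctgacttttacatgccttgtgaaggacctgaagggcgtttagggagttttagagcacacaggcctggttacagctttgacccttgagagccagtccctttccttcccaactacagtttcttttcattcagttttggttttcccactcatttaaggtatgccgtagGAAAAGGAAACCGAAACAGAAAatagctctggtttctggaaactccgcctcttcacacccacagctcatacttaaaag
Bst2: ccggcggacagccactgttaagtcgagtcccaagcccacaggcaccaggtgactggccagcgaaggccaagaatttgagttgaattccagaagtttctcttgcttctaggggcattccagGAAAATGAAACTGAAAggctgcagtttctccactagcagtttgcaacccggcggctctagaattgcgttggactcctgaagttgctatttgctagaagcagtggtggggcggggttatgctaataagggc

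Ifit1 held 2 matches, which ended 75 and 94 bases before the transcript start. The 3 overlapping matches of Isg15 ended between 56 and 68 bases before it and the 2 of Bst2 at 114 and 120 bases. Of all 32851 promoter windows searched on both strands 978 (2.98%) held the motif, and of 27025 genes with a window 936 (3.46%) did. Of the 23 interferon genes with a window 10 (43.5%) held it. Of the 7 lower genes 5 had a window, and no match was found in those of Oasl2 and Xaf1. A match is a description of letters and was not tested for factor binding.

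Ifit1 had 37 UMIs in naïve fibroblasts, 1 at 7 days and 33 at 14 days. Its level was 177 CPM (125 to 244), 3.93 (0.0995 to 21.9) and 47.6 (32.7 to 66.8), so that none of the 3 intervals overlapped and day 14 lay between the others. The naïve UMIs were spread over 14 of 74 cells with at most 9 in a cell. The interval of the log2 ratio ran from -10.83 to -2.92 at 7 days and from -2.62 to -1.18 at 14 days. Bst2 was at 162 CPM (113 to 227), 27.5 (11.1 to 56.7) and 43.2 (29.2 to 61.7), and Isg15 at 86.0 CPM (51.0 to 136), 11.8 (2.43 to 34.5) and 30.3 (18.7 to 46.3). In both genes the naïve interval lay above the others, and those of 7 and 14 days overlapped. Rtp4, for a chaperone of receptors, had 15, 2 and 13 UMIs, Oasl2, of the oligoadenylate synthetase family, 26, 8 and 34, Xaf1, an apoptosis factor gene, 16, 8 and 13, and Ifi27l2a 22, 6 and 17.

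**Figure D4:**
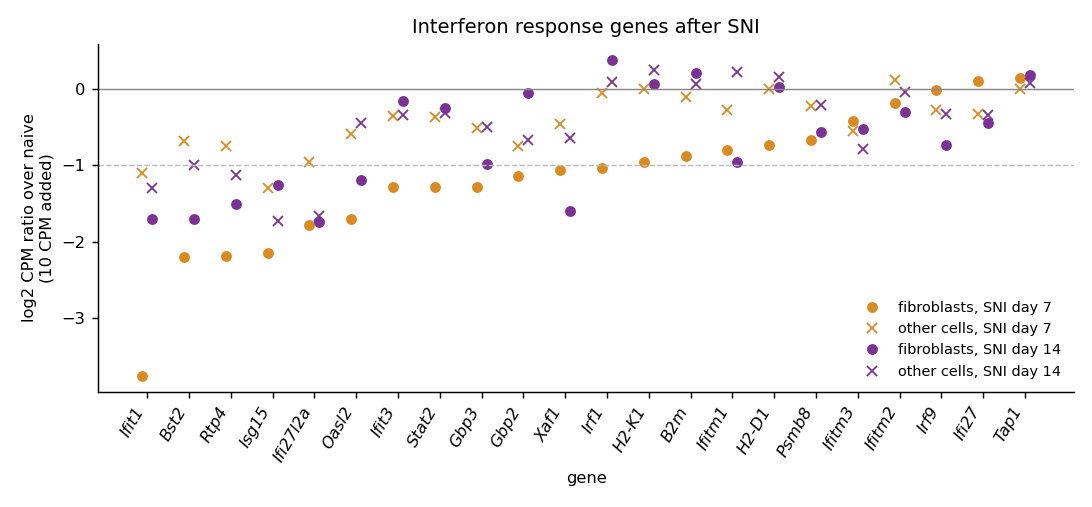
Log2 ratio of CPM over the naïve library, with 10 CPM added, for measured interferon response genes in fibroblasts (circles) and in all other kept cells (crosses) at 7 and 14 days after SNI; the dashed line marks 2-fold lower. Ifit1 was lowest, at -3.75 in fibroblasts at 7 days, against -1.10 in other cells.

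Transcripts of these genes were found in fewer than 50% of fibroblasts of any library. At least 1 of the 7 lower genes had a UMI in 33 of 74 naïve, 24 of 61 day 7 and 60 of 147 day 14 fibroblasts, or 44.6%, 39.3% and 40.8%. At least 3 of the 7 had a UMI in 12 naïve fibroblasts (16.2%), in 1 at 7 days (1.64%) and in 9 at 14 days (6.12%). The 7 genes were picked because they were lower after SNI in these same cells. Smaller shares after SNI follow in part from that choice, so these counts are a description only. Other cell types also held less of these genes after SNI, to unequal extents. Ifit1 ratios were -0.56 and -0.85 in endothelial cells, -2.08 and -1.53 in myelinating Schwann cells and -0.88 and -2.12 in neurons. In macrophages Ifit1 was at 147, 143 and 36.1 CPM. Isg15 ratios were -1.13 and -1.10 in endothelial cells and -1.82 and -2.41 in Schwann cells. Whether the difference between fibroblasts and other cells exceeds that between mice was not tested.

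Genes of class I antigen presentation did not share a pattern. B2m and the heavy chain genes H2-K1 and H2-D1 were lower at 7 days and near the naïve level at 14 days. The peptide transporter gene Tap1 had ratios of 0.14 and 0.18 and the immunoproteasome gene Psmb8 ratios of -0.67 and -0.56. B2m, for the light chain of class I molecules, was at 616 CPM (515 to 732), 330 (263 to 409) and 714 (652 to 779). H2-K1 was at 540 (445 to 649), 275 (214 to 348) and 562 (508 to 621) CPM and H2-D1 at 449, 267 and 454 CPM; these heavy chain genes were chosen after their values were seen, and they are close relatives whose reads may be shared. The day 7 intervals of B2m and H2-K1 lay below both others. In the other kept cells the ratios of B2m were -0.11 and 0.07, those of H2-K1 0.00 and 0.25, and those of H2-D1 0.00 and 0.16. Ifitm3, the list's most abundant gene, was at 1257, 935 and 876 CPM.

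Gpx3, for a secreted glutathione peroxidase that clears peroxides, was the most abundant of the 12 genes furthest below the naïve level. It was at 497 CPM (406 to 602) in naïve fibroblasts, 106 (69.9 to 154) at 7 days and 105 (82.5 to 132) at 14 days, with ratios of -2.13 and -2.14. The naïve interval lay above both others, which overlapped. Gpx3 had a UMI in 15 of 74, 7 of 61 and 15 of 147 fibroblasts, and single cells held up to 31 of 104, 9 of 27 and 29 of 73 UMIs, so the level rested on a minority of cells. Under the stricter cell filter the ratios were -0.87 and -1.05. In the other kept cells Gpx3 went the other way, with ratios of 0.23 and 0.53. Neurons were at 120, 276 and 326 CPM and macrophages at 22.6, 77.2 and 77.5 CPM, while 0.350%, 0.502% and 0.764% of myelinating Schwann cells had a UMI.

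Of the other lower genes, Dlk1, for a Notch-related inhibitor of adipogenesis, was at 139 CPM (92.8 to 199), 35.4 (16.2 to 67.1) and 17.3 (8.94 to 30.2). Lars2 and Polg, for the mitochondrial leucyl-tRNA synthetase and DNA polymerase, were at 162, 58.9 and 59.1 CPM and at 86.0, 15.7 and 28.8 CPM. Under the stricter cell filter the day 14 ratio of Polg was -0.47. Polg had at most 2 UMIs in a cell and was detected in 23.0%, 6.56% and 12.2% of fibroblasts. Smarcad1, a chromatin remodeller gene, was at 81.2, 27.5 and 15.9 CPM. Ctns, for the lysosomal cystine transporter, and Arfip1 were among the lower genes without the glia-gene cells, with 20, 7 and 39 UMIs and 18, 9 and 19 UMIs over all members. Tsc22d3, a target of glucocorticoids, and Txnip, for an inhibitor of thioredoxin, were chosen after their values were seen. Tsc22d3 was at 707 CPM (598 to 831), 295 (232 to 369) and 198 (166 to 233), with -0.28 and -0.69 in the other kept cells, and Txnip at 349 CPM (273 to 439), 145 (102 to 200.4) and 149 (121 to 180).

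Of 14 measured genes of hypoxia and glycolysis, Pgk1 was higher in both SNI libraries, beside 2.49% of all genes. Pgk1 was at 28.7, 102 and 77.8 CPM, and the list medians were 0.03 and -0.08. Without the glia-gene cells the medians were -0.24 and -0.08, and Eno1, for a glycolytic enolase, was 2-fold lower in both. Gapdh was at 392, 350 and 309 CPM. Of 15 measured lipid genes, the sterol synthesis genes Hmgcs1 and Sqle were higher and Dlk1 lower, beside 2.49% and 0.709% of all genes. The medians of this list were 0.14 and 0.53, and -0.02 and 0.13 without the glia-gene cells. Hmgcs1 had 38 of its 49 UMIs at 7 days in 1 cell, and its ratios of 2.07 and 1.44 became 0.01 and 0.23 without the glia-gene cells, while those of Sqle, 1.55 and 1.48, became 0.47 and 0.38. All 6 measured genes of retinoid and steroid metabolism were below 0 in both SNI libraries, beside 38.5% of all genes, with medians of -0.28 and -0.34, or -0.18 and -0.23 without the glia-gene cells, and none of them was 2-fold lower in both. Apoe, which glia and macrophages also make, was at 2771, 5839 and 4742 CPM over all members and 2771, 2948 and 2605 CPM without the glia-gene cells.

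Patterns of known kinds of nerve fibroblast could be read in part from co-detected genes, although they overlapped, the counts are sparse and no cluster was named. Sox9, a transcription factor of endoneurial fibroblasts, had a UMI in 141 of 282 members: 44.6% (33.0 to 56.6) of the naïve, 42.6% (30 to 55.9) of the day 7 and 55.8% (47.4 to 64.0) of the day 14 fibroblasts. After reduction to 2000 UMIs per cell, which left out 28, 10 and 24 shallower members, the shares were 34.3%, 33.5% and 47.1%. The intervals overlapped. Endothelial cells had a Sox9 UMI in 0%, 0.518% and 0.338% of cells, at median depths of 4145, 5152 and 5806 UMIs. Abca8a, a lipid transporter gene, was in 236 members, in 91.5% of those with Sox9 and 75.9% of those without. Of myelinating Schwann cells 35.2%, 39.3% and 42.0% had an Abca8a UMI. Osr2, another transcription factor of the endoneurium, was in 87 members, of which 55 also had Sox9. It was in 39.0% of members with Sox9 and 22.7% of those without. Median depth was 3382 UMIs in members with Sox9 and 2735 in those with neither Sox9 nor Itgb4. Of the 11 measured endoneurial genes none was 2-fold apart in both libraries, with medians of 0.02 and 0.03, or 0.14 and 0.26 without the glia-gene cells. Cells with a Sox9 UMI had Dcn at 24548 CPM and Lum at 5425 CPM.

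A perineurial pattern was rare. A UMI of the integrin gene Itgb4 together with 1 of Cldn1, a tight junction gene, or Klf5 was found in 4 naïve, 6 day 7 and 16 day 14 fibroblasts, or 5.41%, 9.84% and 10.9%. Itgb4 is not particular to fibroblasts, since 51.3%, 64.0% and 61.3% of myelinating Schwann cells had a UMI. Lypd2 was in 19 members, 6, 3 and 10. None of these 19 had a UMI of the endoneurial gene Osr2 or of Scn7a, while 16 had Klf5, 12 had Itgb4 and 9 had Slc2a1, the glucose transporter gene of barrier cells. Genes of the outer sheath and meninges were found in them too, with Pi16 in 6, Clec3b in 5 and Slc47a1 in 4. Pi16 was in 31.6% of these 19 cells and in 2.66% of the other members. The 19 cells had Lum at 156 CPM, against 5425 CPM in the cells with Sox9, and Dcn at 10607 CPM. Of 13 measured perineurial genes, Crabp2 and Lypd2 were lower in both SNI libraries, beside 0.709% of all genes. The list medians were -0.22 and -0.44, or -0.22 and -0.12 without the glia-gene cells. The day 14 median was 0.05 with every cell counted alike. Lypd2 was at 225, 23.6 and 47.6 CPM, with 22 of its 47 naïve UMIs in 1 cell, and Crabp2, for a retinoic acid binding protein, at 86.0, 27.5 and 14.4 CPM, with 12 of 18 naïve UMIs in 1 cell. With the sums of other cell types at 0 neither was 2-fold lower in both, with ratios of -0.19 and -0.81 for Crabp2 and -1.38 and -0.50 for Lypd2, and under the stricter cell filter those of Crabp2 were -0.82 and -0.82. No UMI of Lypd2 was seen in myelinating Schwann cells.

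Cells of the outer sheath and meninges formed the remaining patterns. Clec3b or Pi16, genes of adventitial and epineurial fibroblasts, had a UMI in 8, 8 and 17 members, or 10.8%, 13.1% and 11.6%. Of 31 members with Clec3b, 11 also had Pi16, compared with 0.797% of the members without Clec3b. The 15 epineurial genes measured had medians of -0.31 and 0.17, with none 2-fold apart in both, and the day 14 median was -0.39 under the stricter cell filter. Slc47a1, for an organic cation exporter of the meninges, was in 6, 4 and 5 members, or 8.11%, 6.56% and 3.40%. Of these 15 cells 14 had Foxd1, which 52.8% of the other members also had. Sfrp4 was in 12 of the 15, Crabp2 in 7 and Sox9 in 2. Pi16 was in 5 of them, Clec3b in 5 and Lypd2 in 4, so the patterns overlapped. Slc47a1 was at 220, 98.2 and 24.5 CPM, and 22 of its 25 UMIs at 7 days were in 1 cell. Of the meningeal list Slc47a1 and Crabp2 were lower in both SNI libraries, beside 0.709% of all genes. The list medians were -0.09 and -0.65. Of 11 measured genes 1 was above 0 in both SNI libraries, beside 34.9% of all genes. Without the glia-gene cells the medians were -0.12 and -0.26 and only Crabp2 was lower in both, with ratios of -0.98 and -2.42 for Slc47a1. The stricter cell filter gave medians of 0.56 and 0.23. Cldn11, a tight junction gene of the arachnoid barrier, chosen after its values were seen, was at 220, 134 and 60.5 CPM. The transcription factor genes of mesenchyme Foxd1, Zic1 and Foxc1 were at 358, 440 and 330 CPM, 349, 436 and 313 CPM, and 358, 263 and 192 CPM. Fewer cells of a kind and less RNA in each of them cannot be told apart in these sums.

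**Figure D5:**
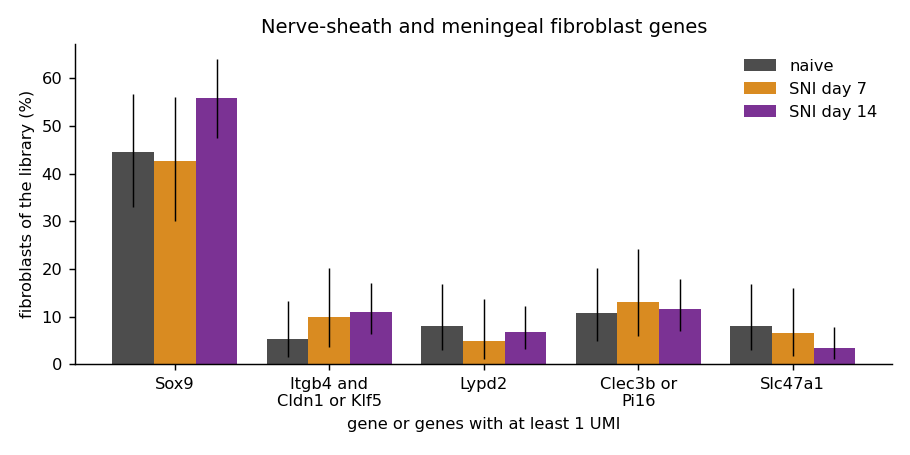
Share of the fibroblasts of each library (per cent, bars) with a UMI of genes known from kinds of nerve and meningeal fibroblast, with exact 95% Clopper-Pearson intervals. Sox9 was in 44.6%, 42.6% and 55.8% of fibroblasts and Slc47a1 in 8.11%, 6.56% and 3.40%, and within each group of bars the intervals overlapped.

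Marker lists of other cell types gave the remaining measure of purity. Endothelial markers summed to 90.8, 62.9 and 108 CPM and mural markers to 540, 303 and 324 CPM, mostly Pdgfrb and Cspg4, which fibroblasts can also express. Macrophage markers summed to 215, 58.9 and 388 CPM, and of the 196 Cd74 UMIs at 14 days 182 were in 1 cell. Neuron markers summed to 139, 424 and 327 CPM, or 359 and 227 CPM in the SNI libraries without the glia-gene cells. They had 8, 34 and 68 UMIs of Sncg and 5, 16 and 56 of Tubb3. Of 4 measured neuron markers 3 (Tubb3, Uchl1 and Sncg) were 2-fold higher in both SNI libraries, beside 2.49% of all genes. Without the glia-gene cells 1 of 3, Uchl1, still was. Markers of satellite glia summed to 4692, 8759 and 9532 CPM, with 6 of 12 genes higher in both SNI libraries, beside 2.49% of all genes. Without the glia-gene cells they summed to 4692, 4584 and 4956 CPM. Of the 8 genes then measured none was higher, beside 1.1% of all genes. Most genes of this list were used to choose the glia-gene cells, so the lower sums follow in part from that choice. Markers of myelinating Schwann cells summed to 593, 975 and 1999 CPM, or 593, 624 and 749 CPM without the glia-gene cells. Red blood cell genes summed to 28.7, 74.7 and 59.1 CPM. The part of these transcripts in the differences above was not tested, other than by leaving out the glia-gene cells.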

How the data were processed

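The authors deposited, for each of 3 libraries (10x Genomics 3′ chemistry, version 3), a matrix of UMI counts of 31053 genes by barcode, made per the labels with Cell Ranger 3.0.2 and genome build mm10 (from the submitters' processing notes). The annotation, and whether libraries were subsampled to equal depth, are not given in the sources used here. The matrices held 3748, 3281 and 4908 barcodes with 23107376, 22343246 and 36550911 UMIs (naïve, day 7, day 14). Libraries shared 1, 6 and 2 barcodes.

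Members were found by the rule above and their counts summed per library, with CPM, exact Poisson intervals, exact Clopper-Pearson intervals and exact conditional binomial intervals of ratios. Genes needed at least 30 UMIs over the members. Other cell types were grouped by at least 2 UMIs of their marker sum, at most 1 of each other sum, and fewer than 3 fibroblast genes. Scrublet (scanpy 1.11.5, expected rate 5%) was run per library and marked 90 kept cells (0.931%); none was removed. Other tools were scipy 1.17.1, numpy 2.4.6, pandas 2.3.3 and Python 3.11.15. The scripts were tested on simulated data.

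Named genes were the 12 highest and 12 lowest past 2-fold in both SNI libraries detected in 10% or more of the members of each library where the gene is higher (with all members and again without glia-gene cells), the 10 highest over other cells, the genes of the rule and, in each of 29 lists, those past 2-fold and the 3 with most UMIs. Members and lists were chosen with earlier results of these data known. Alternatives covered cell filters, the rule, doublets, depth, scaling, pseudocounts, gene minimums and glia-gene cells. Promoters were 250 bases upstream in RefSeq, build GRCm38.p6. Some genes of the lists are not reported here by name.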

Additional observations from a re-analysis of the deposited data

Results flagged for a closer look

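Gpx3 differed between fibroblasts and the rest of the ganglion. Its log2 ratios over the naïve library were -2.13 at 7 days and -2.14 at 14 days in fibroblasts, and 0.23 and 0.53 in all other kept cells, so the directions were opposite at both times. With 1 library for each condition this difference was not tested.

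Barcodes outside the cells analysed also carried fibroblast genes. Of the barcodes that failed the filter on gene number or mitochondrial UMIs, 15 naïve, 18 day 7 and 56 day 14 barcodes met the gene rule.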

How the results depend on the processing

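Fibroblasts made up 2.35%, 2.27% and 3.84% of kept cells (naïve, then day 7, then day 14), and 158 genes were higher and 45 lower in both SNI libraries. With cells held to 1000 or more genes and 10% or less mitochondrial UMIs the naïve share was 3.13% and 74 genes were higher. With at least 4 of 7 fibroblast genes 89 were higher. With the sums of other cell types at 0 the shares were 1.84%, 1.60% and 2.46%. Counting each cell alike gave 73 lower genes. A pseudocount of 1 CPM gave 252 higher and 88 lower, and 50 CPM gave 17 and 10. A minimum of 10 UMIs gave 333 and 115, and 100 UMIs gave 37 and 5. Leaving out cells with at least 5 glia genes gave 61 higher genes, and leaving out those with at least 4, also chosen after seeing the data, gave 59 and a day 14 share of 2.90%. The other alternatives for these values, among them another scaling, no cell filter and leaving out called doublets, moved the counts by less than 1.5 times and the shares within their intervals.

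Of 62 named genes 2-fold apart in both SNI libraries, a pseudocount of 50 CPM left the fewest so, 19. Csf1, C3 and Crtap were among those lost. The stricter cell filter left 35, 4 of 7 genes 45, the sums at 0 47 and every cell alike 48. Leaving out cells of 5 or of 4 glia genes left 41 and 39. Of 684 list medians under the alternatives 251 moved by more than 0.1. Of 1512 values of named genes, 156 left the counting interval of the ratio and a further 28 changed sign. Under the stricter cell filter these were Col12a1 (1.40 at 14 days), Ednrb (-0.92 and -0.43 at 7 and 14 days), Ptn (-0.94 at 14 days) and Sostdc1 (-0.04 at 14 days). With 4 of 7 genes they were, at 7 days, Ednrb (-0.11), Fabp7 (-0.60) and Ptn (-0.43), and with the sums at 0 Tubb3 (-0.19 at 7 days). Without cells of 5 glia genes they were Ednrb (-0.39 and -0.30), Fabp7 (-0.54 and -0.21), Ptn (-0.56 and -2.00), Sostdc1 (-0.05 and -0.09) and, at 7 days, Fbln5 (-0.29) and Gpm6b (-0.32). Without cells of 4 glia genes they were Ednrb (-0.78 and -0.57), Fabp7 (-0.71 and -0.38), Ptn (-0.50 and -1.95) and, at 7 days, Fbln5 (-0.24), Gpm6b (-0.17) and Hmgcs1 (-0.22). Apart from the fewer cells and genes that a filter leaves, the cause was not tested.

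No paired analysis was possible because there was 1 library per condition. No p-value can therefore be given, and mouse, dissection and library cannot be told apart from injury. The 209297 UMIs of the naïve fibroblasts limit genes under about 3 UMIs, or 14.3 CPM, and single cells decided several levels.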
